A study of Mus musculus with 12 samples.

Results

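Zinc finger genes named Zfp and a number form long tandem arrays on mouse chromosomes 7, 13 and 17. The protein-coding genes of these 3 chromosomes whose symbol is Zfp, a number and at most 1 further letter were taken from the GENCODE M21 annotation of GRCm38. They numbered 173 of 21951 protein-coding genes, with 92 on chromosome 7, 36 on chromosome 13 and 45 on chromosome 17. Another 218 genes of the same naming pattern lay on other chromosomes and served as a comparison group. Open chromatin was profiled with Omni-ATAC-seq, a protocol based on a transposase that cuts accessible DNA and adds adapters, in embryonic fibroblasts (MEFs) that had been sorted for THY1 and in embryonic stem cells (mESCs) that had been sorted as THY1-/SSEA1+/EPCAM+, both from mice of C57/Bl6 background. The labels gave neither an age nor a treatment. Of the 6 libraries, MEFs gave replicates 1, 2 and 4, and mESCs gave replicates 1, 3 and 5. Each library was sequenced with the DNBSEQ-G400 of BGI and with the HiSeqX10 of Illumina, so both platforms read the same 3 biological replicates of a cell type and are not independent.

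Most proteins of this name carry tandem C2H2 zinc fingers, each of which contacts a few bases of DNA. Many of them also carry a KRAB domain, which recruits the corepressor TRIM28 and, through it, histone H3 lysine 9 methylation and DNA methylation to transposable elements and imprinted regions. The KRAB zinc finger genes arose by tandem duplication, so neighbours in an array are often close paralogues with similar promoters. The naming pattern also takes in genes outside that family, such as Zfp36, which encodes the RNA-binding protein tristetraprolin, and Zfp143, a transcriptional activator of small nuclear RNA and many coding genes.

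Members were sorted by position, and neighbours whose starts lay at most 100 kb apart were joined. Runs of 3 or more members were called clusters, runs of 2 pairs, and members without a joined neighbour single. By this measure 118 members lay in 17 clusters, 18 in 9 pairs and 37 were single. A single gene could still have a neighbouring zinc finger gene of another name. Peaks no farther than 1 kb from any transcription start site (TSS) of a gene counted as its promoter peaks, and the densest of them was its lead peak. Read density is given as CPM, the counts of a peak scaled to the reads in all peaks of a sample. Fold changes also use the trimmed mean of M values scaling, which CPM leaves out, so where a change is small its sign can differ from that of the CPM means. The depth was 20.1M to 21.7M reads in peaks per MEF sample and 15.9M to 17M per mESC sample, and the median lead peak of a member held 488 to 542 reads in a MEF sample and 356 to 405 reads in an mESC sample. The cell type labels were checked at marker promoters on BGI. Of 7 mESC markers 6 were higher and 1, Fut4, was lower in mESCs, and 5 of 7 fibroblast markers were lower in mESCs, with Thy1 at 35.0 CPM in MEFs and 11.1 CPM in mESCs. The summed promoter reads of 4 macrophage markers, of which Csf1r alone had a peak, were 14.4 to 17 CPM in the MEF samples and 1.01 to 2.77 CPM in the mESC samples. Of 4 endothelial markers 3 had a peak and 0 were called. Of 4 primitive endoderm and trophoblast markers 3 had a peak, of which Sox17 was higher in mESCs by 2.50 on the log2 scale, from 3.14 to 18.6 CPM, and Gata6 had a log2 fold change of -0.64. The part of other cell types in the results was not tested. In bulk samples, a smaller share of cells with an open promoter and a less accessible promoter in every cell cannot be told apart.

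The sequences of 7 promoters are shown because the results turn on them. They were read from the RefSeq genome GRCm38.p6 over the 250 bases before the TSS nearest to the centre of the lead peak, 5′ to 3′ in the direction of the gene. Capitals mark the pentamer CCAAT or its reverse complement, the core of the CCAAT box. The first group holds 4 related promoters of one region of chromosome 7, Zfp977 (chr7:42592548-42592797, minus strand), Zfp936 (chr7:43177338-43177587, plus strand), Zfp976 (chr7:42642589-42642838, minus strand) and Zfp975 (chr7:42692743-42692992, minus strand).
Zfp977: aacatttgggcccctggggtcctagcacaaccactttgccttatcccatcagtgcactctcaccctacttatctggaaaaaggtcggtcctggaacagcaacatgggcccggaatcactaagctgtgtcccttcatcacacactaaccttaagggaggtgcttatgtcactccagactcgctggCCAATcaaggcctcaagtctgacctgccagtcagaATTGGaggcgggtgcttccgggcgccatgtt
Zfp936: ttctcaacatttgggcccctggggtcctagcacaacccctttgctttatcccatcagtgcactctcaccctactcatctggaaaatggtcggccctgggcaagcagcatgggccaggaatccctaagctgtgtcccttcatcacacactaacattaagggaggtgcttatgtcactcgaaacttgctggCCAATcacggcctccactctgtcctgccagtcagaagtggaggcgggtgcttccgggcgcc
Zfp976: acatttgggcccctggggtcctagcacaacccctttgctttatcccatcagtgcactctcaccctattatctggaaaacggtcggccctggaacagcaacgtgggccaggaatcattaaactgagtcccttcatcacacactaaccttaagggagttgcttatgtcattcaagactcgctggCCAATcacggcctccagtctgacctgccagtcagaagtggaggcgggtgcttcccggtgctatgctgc
Zfp975: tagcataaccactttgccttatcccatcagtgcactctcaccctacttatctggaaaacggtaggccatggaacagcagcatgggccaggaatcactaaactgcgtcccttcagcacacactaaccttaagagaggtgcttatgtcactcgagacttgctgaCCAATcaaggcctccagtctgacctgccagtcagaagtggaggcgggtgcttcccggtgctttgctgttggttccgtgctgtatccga

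The second group holds the clustered promoters with the most negative BGI log2 fold changes of mESC against MEF, Zfp607a (chr7:27860335-27860584, plus strand) and Zfp773 (chr7:7136725-7136974, minus strand), and the promoter with the highest read density of all members on both platforms, Zfp574 (chr7:25076955-25077204, plus strand).
Zfp607a: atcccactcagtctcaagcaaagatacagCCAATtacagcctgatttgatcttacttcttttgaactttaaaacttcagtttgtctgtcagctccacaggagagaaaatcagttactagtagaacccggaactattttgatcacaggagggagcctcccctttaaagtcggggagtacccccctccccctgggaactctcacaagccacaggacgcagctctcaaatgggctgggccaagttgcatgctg
Zfp773: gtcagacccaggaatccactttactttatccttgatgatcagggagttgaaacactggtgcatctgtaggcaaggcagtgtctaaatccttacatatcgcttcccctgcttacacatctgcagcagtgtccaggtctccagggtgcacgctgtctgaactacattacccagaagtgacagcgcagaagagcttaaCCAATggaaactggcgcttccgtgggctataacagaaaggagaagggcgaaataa
Zfp574: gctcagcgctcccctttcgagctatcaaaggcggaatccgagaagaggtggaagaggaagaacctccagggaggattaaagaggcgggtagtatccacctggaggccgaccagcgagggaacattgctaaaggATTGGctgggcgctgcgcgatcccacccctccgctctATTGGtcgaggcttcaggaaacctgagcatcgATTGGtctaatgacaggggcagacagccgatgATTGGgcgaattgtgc

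The promoters of the first group resembled each other more than the median pair of members did. Aligned end to end over 300 bases, from 250 before to 50 after the TSS, Zfp977 and Zfp936 shared 89.8% of columns, Zfp977 and Zfp976 89.4%, and Zfp936 and Zfp976 85.3%. Zfp975 shared 79.1% with Zfp976, 77.6% with Zfp977 and 73.7% with Zfp936. The median over all pairs of members was 45.8%. The 250 bases shown hold 6 CpG dinucleotides in Zfp977 and in Zfp936, 7 in Zfp976 and in Zfp975, 3 in Zfp607a, 6 in Zfp773 and 15 in Zfp574.

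The first question was how many zinc finger promoters differ in accessibility between the cell types. A lead peak was found for 167 members on BGI and 168 on Illumina. Some members share a lead peak, so these were 163 and 164 distinct peaks, and member counts are counts of genes. On BGI, the lead promoter was more accessible in mESCs for 28 members and less accessible for 67 (edgeR quasi-likelihood test, Benjamini-Hochberg adjusted p under 0.05). Together these were 56.9%, and 72 did not pass the test. With each distinct lead peak counted once, 28 were higher and 66 lower. Among lead promoter peaks of all protein-coding genes 66.2% were called, 22.4% higher and 43.8% lower, and among all peaks of the genome 84.1% were called, 40.9% higher and 43.2% lower. On Illumina, 27 members were higher and 81 lower, together 64.3%, against 68.4% of protein-coding lead promoters (22.8% higher, 45.6% lower) and 84.5% of all peaks (42.1% higher, 42.4% lower). In this fit the share of members called was below the background on both platforms, by less on Illumina. As each library was left out in turn, 95 to 111 members were called on Illumina and 86 to 100 on BGI. DESeq2 in place of edgeR called 112 on Illumina and 96 on BGI. The background share is not given for these alternatives, and the difference from the background was not tested. Lower calls outnumbered higher ones among members as among protein-coding genes. The median log2 fold change was -0.19 on BGI and -0.18 on Illumina, beside -0.17 over protein-coding lead promoters on either platform.

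Few members changed by a large factor at their lead peak. Calls of a 2-fold change or more, in either direction, were made for 8 members on BGI (4.79%) and 11 on Illumina (6.55%), against 17.6% and 16.6% of protein-coding lead promoters and 11.1% and 10.3% of Zfp genes on other chromosomes. The 3 MEF and 3 mESC values did not overlap for 97 members on BGI (58.1%, background 68.1%) and 107 on Illumina (63.7%, background 70.1%). When library sizes were fixed at the depths to which the authors had down-sampled instead of the trimmed mean of M values, the median of all peaks moved by 0.14 on BGI and 0.13 on Illumina on the log2 scale. With that scaling, 34 members were higher and 55 lower on BGI, and 32 were higher and 58 lower on Illumina, so that the share of member calls that were higher moved from 29.5% to 38.2% and from 25% to 35.6%. Relative to protein-coding lead promoters the member median was -0.01 on BGI under either scaling, and -0.0048 and -0.0045 on Illumina.

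**Figure D1:**
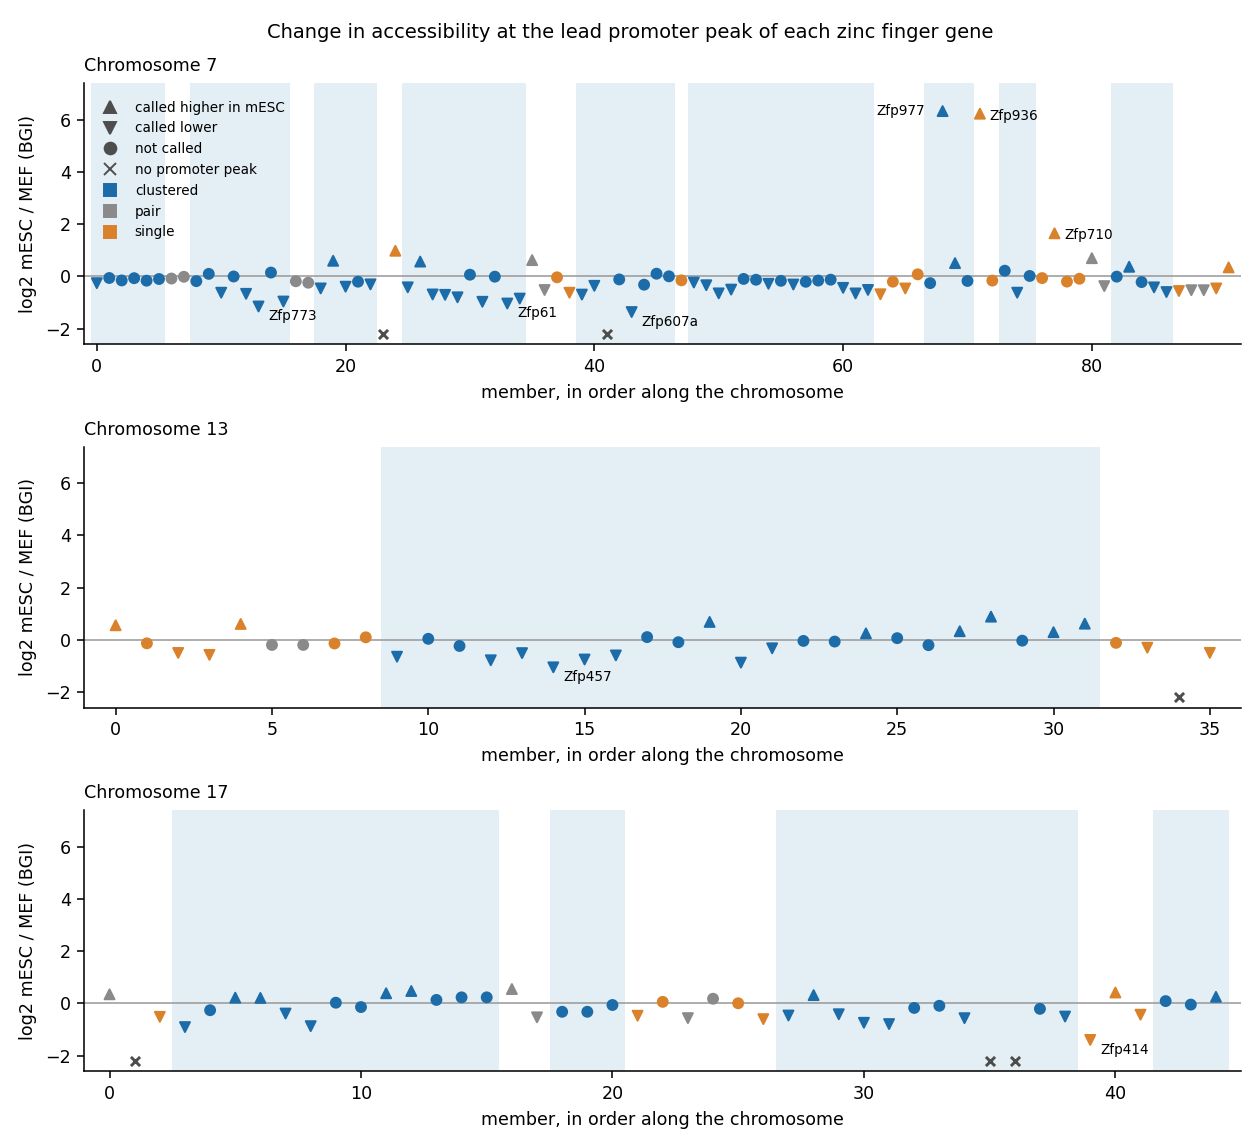
Log2 fold change of mESC against MEF at the BGI lead promoter peak (y axis) of each of the 173 members in their order along chromosomes 7, 13 and 17 (x axis). Shading marks clusters, colours the position class, triangles calls in either direction and crosses the 6 members without a promoter peak in the BGI count table, drawn below the data; 2 members of chromosome 7, Zfp977 and Zfp936, stand above 6 and nearly all others between -1.4 and 1, with Zfp710 at 1.65.

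Zfp977 and Zfp936 were nearly closed in MEFs and open in mESCs. At Zfp977 the BGI density was 0.831, 0.348 and 0.0996 CPM in MEFs 1, 2 and 4 and 32.8, 41 and 37.7 CPM in mESCs 1, 3 and 5. These values rest on 18, 7 and 2 reads in the MEF samples and 520 to 694 reads in the mESC samples. The log2 fold change by edgeR was 6.33 ± 0.27 (SE) with BGI, at an adjusted p of 1.62e-12, and 6.17 ± 0.22 with Illumina, at 2.29e-13. At Zfp936 the BGI density was 0.646, 0.547 and 0.946 CPM in the MEFs and 50.9, 68.8 and 48.8 CPM in the mESCs. Its edgeR log2 fold change was 6.23 ± 0.20 with BGI, at an adjusted p of 1.14e-13, and 6.80 ± 0.23 with Illumina, at 1.42e-13. Every mESC value of both genes was above every MEF value on both platforms. The size of the change depended on single MEF libraries, since the log2 fold change of Zfp977 on BGI was 7.32 without MEF 1 and 5.86 without MEF 4, and that of Zfp936 on Illumina reached 7.46 without MEF 4. No peak was called at either promoter in any of the 6 MEF samples, whereas in the 6 mESC samples the -log10 p of the best call ranged from 220 to 380 at Zfp977 and 396 to 763 at Zfp936.

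The closely related neighbours did not share this difference. Zfp976 held 23.7, 24.8 and 25.1 CPM in the MEFs and 38.4, 38.3 and 32.9 CPM in the mESCs on BGI, or higher by 0.51 ± 0.10 on the log2 scale (SE; edgeR adjusted p = 0.000158), and 0.57 on Illumina. Zfp975 held 41.4, 43 and 42.3 CPM in the MEFs and 38.1, 38.1 and 41.2 CPM in the mESCs, a log2 fold change of -0.18 that did not pass the test on BGI (adjusted p = 0.0682) and passed on Illumina at -0.24. The fourth gene of that cluster, Zfp141, gave -0.26 on BGI (adjusted p = 0.0526) and -0.32 on Illumina. Zfp976, with 85.3% to 89.4% of columns shared with the Zfp936 and Zfp977 windows, was open in both cell types. Near-identical copies can split or lose reads, and the authors kept reads with a mapping quality of at least 10. The share of 100-base stretches that occur once in the genome was taken within 250 bp of the 5′ end of the gene record. It was 96.3% for Zfp977, 94.5% for Zfp936, 94.3% for Zfp976 and 100% for Zfp975. The Zfp936 lead peak lay at the start of a coding transcript, 63298 bp from the 5′ end of the gene record, and with gene starts alone the gene had no peak. The 94.5% thus does not describe the sequence at the Zfp936 lead peak, where uniqueness was not measured.

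**Figure D2:**
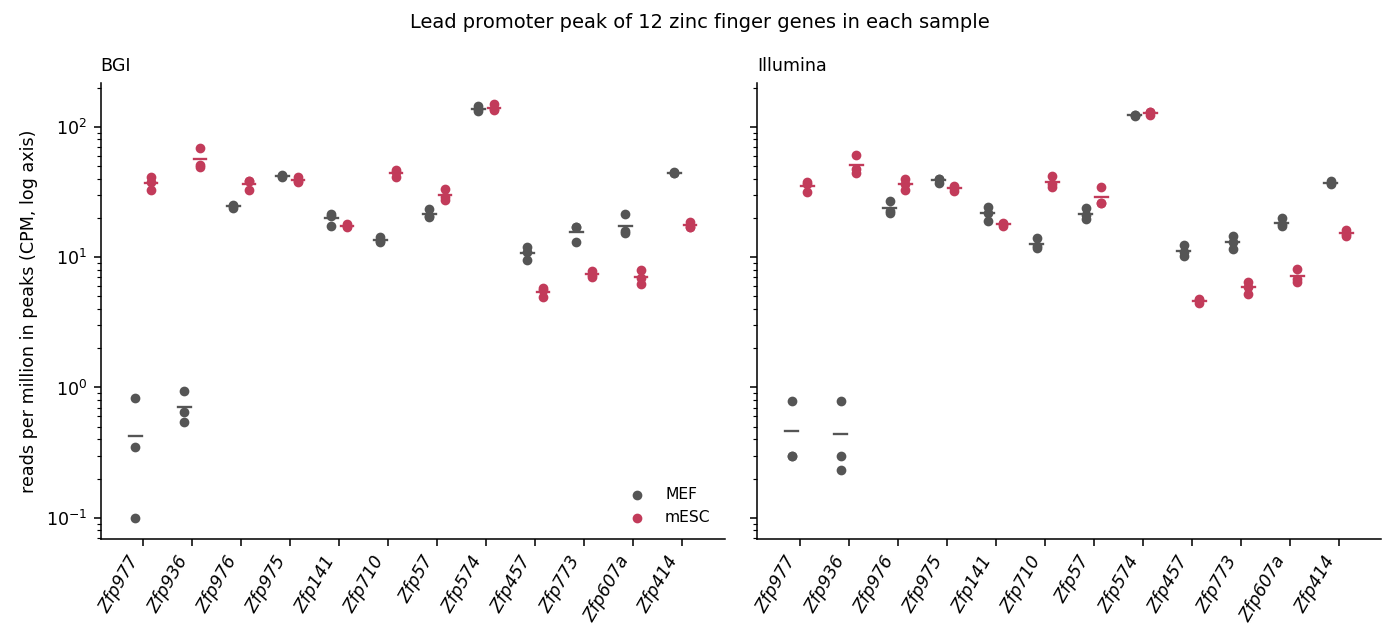
Read density of the lead promoter peak (CPM, log axis) for 12 named members (x axis) in each MEF (grey) and mESC (red) sample on BGI (left) and Illumina (right), with bars at the group means. Zfp977 and Zfp936 lie below 1 CPM in every MEF sample and above 30 CPM in every mESC sample, whereas the relatives Zfp976 and Zfp975 lie above 20 CPM in all samples.

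Among the other members with higher accessibility in mESCs the changes were smaller. Zfp710 had 13, 14.3 and 13.2 CPM in the MEFs and 41.2, 46.5 and 45.1 CPM in the mESCs on BGI, with no overlap, or higher by 1.65 ± 0.10 on the log2 scale (edgeR adjusted p = 1.2e-10) and 1.53 on Illumina. Zfp296, a pluripotency-associated gene, rose from 4.28 ± 0.56 to 8.83 ± 0.45 CPM (SD, n = 3), a log2 fold change of 0.98 on BGI and 1.18 on Illumina, at a peak that also lies within 1 kb of a start of Gemin7. The large chromosome 13 cluster followed, with Zfp65 at a log2 fold change of 0.89, Zfp459 at 0.69 and Zfp273 at 0.62. Zfp428, Zfp808 and Zfp110, the last of which encodes a protein that binds the p75 neurotrophin receptor, were higher by 0.62, 0.61 and 0.60. All of these passed the test on both platforms, and in each the mESC samples lay above the MEF samples. For Zfp65 the direction depends on the peak, since a further promoter peak was called lower (-0.88 on BGI, -0.97 on Illumina) and the Illumina peak nearest to a start gave -0.0495 (edgeR adjusted p = 0.803). Zfp541 had a peak in the Illumina count table alone, with 1.54, 2.29 and 1.77 CPM in the MEFs and 6.88, 7.61 and 6.88 CPM in the mESCs (log2 fold change 1.89, edgeR adjusted p = 8.07e-07).

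Zfp57, which binds methylated imprinting control regions and protects their methylation in the early embryo, was moderately more accessible in mESCs. Its lead peak held 20.4, 23.3 and 20.7 CPM in the MEFs and 28.9, 33.5 and 27.6 CPM in the mESCs on BGI, without overlap. By edgeR it was higher by 0.42 ± 0.11 with BGI, at an adjusted p of 0.00237, and by 0.39 ± 0.12 with Illumina, at 0.00757. On Illumina the call rested on mESC 3, without which the log2 fold change was 0.19 (adjusted p = 0.125).

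The lower group was led by Zfp414, Zfp607a, Zfp773 and Zfp457, the only members lower by at least 1 on the log2 scale on both platforms. Zfp414, a single gene of chromosome 17, had 43.9, 44.7 and 44 CPM in the MEFs and 18.7, 17 and 17 CPM in the mESCs, or -1.40 ± 0.10 on the log2 scale (SE; edgeR adjusted p = 3.95e-10). The clustered Zfp607a fell from 15.2, 15.9 and 21.3 CPM to 6.87, 8.04 and 6.27 CPM, or -1.37 ± 0.17 (adjusted p = 5.25e-07). No member of this quartet had overlapping groups on either platform. Zfp773 fell from 13, 17.1 and 16.9 CPM to 7.25, 7.04 and 7.83 CPM, or -1.15 ± 0.16 (adjusted p = 1.91e-06). Zfp457, in the chromosome 13 cluster, fell from 9.46, 10.9 and 11.9 CPM to 4.92, 5.56 and 5.84 CPM, or -1.05 ± 0.18 (adjusted p = 2.39e-05). The next were Zfp61 at -1.04, Zfp108 at -0.97, Zfp772 at -0.96, Zfp677 at -0.91, Zfp874a at -0.87 and Zfp948 at -0.87, of which Zfp61 and Zfp108 lie in one chromosome 7 cluster and Zfp677 and Zfp948 in one cluster of chromosome 17. The Zfp772 promoter is partly repeated in the genome, with 77.6% of its 100-base stretches unique. Of the members whose lead peak reached the member median of 24.7 CPM, the smallest BGI log2 fold changes were those of Zfp598, which encodes a ubiquitin ligase that senses collided ribosomes (0.0051), Zfp28 (-0.0055), Zfp768 (-0.01), Zfp444 (-0.02) and Zfp983 (0.03). Further promoter peaks of some of these genes were called. The Zfp768 peak nearest to a start was called lower, with -0.31 for BGI, at an edgeR adjusted p of 0.0485, and -0.35 for Illumina, and Zfp444 had a further peak at -0.69 and another at 3.55 on BGI, both called on both platforms.

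The 3 member promoters with the densest BGI lead peaks did not pass the test. On Illumina, Zfp446 ranked second, with 102 CPM in MEFs and 87.1 CPM in mESCs, and was called lower (log2 fold change -0.28, edgeR adjusted p = 0.00197). Zfp574 had 131, 145 and 137 CPM in the MEFs and 138, 150 and 134 CPM in the mESCs on BGI, Zfp143 had 97.1 ± 3.35 and 95.3 ± 12.2 CPM, and Zfp444 had 95.3 ± 3.46 and 98.6 ± 2.84 CPM (mean ± SD, n = 3). In Zfp574, Zfp143 and Zfp444 the groups overlapped and the test was not passed on either platform. Their BGI log2 fold changes were -0.04, -0.09 and -0.02. Taking only the 5′ end of the gene record as the start, Zfp574 had another, sparser peak that was lower by -1.24 on BGI. With library mESC 3 left out, Zfp143 passed the test on both platforms, at -0.17 on BGI and -0.26 on Illumina. Zfp36 had a lead peak 696 bp from its nearest start, with 54.1 ± 1.28 CPM in MEFs and 50.9 ± 5.29 CPM in mESCs (edgeR log2 fold change -0.15, adjusted p = 0.139). A second Zfp36 peak, closer to a start, was higher in mESCs by 0.52 with BGI, at an edgeR adjusted p of 0.000283, and by 0.49 with Illumina, so the direction for this gene depends on the peak.

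The sign of the fold change was the same on both platforms for 156 of 167 members. Of these 167, which had a peak on both, 23 were higher on both, 66 were lower on both, 54 passed on neither, 6 passed on BGI alone and 18 on Illumina alone, and 0 passed in opposite directions. Lead peaks overlapped by at least 50% for 161 of them. At member promoters the log2 ratio of BGI to Illumina density within a library had a median of -0.01 to 0.04 in the 3 MEF libraries and 0.03 to 0.05 in the 3 mESC libraries, against -0.11 to -0.07 over promoter peaks of protein-coding genes in general and 0.05 to 0.08 over all peaks. Member values thus lay between those of promoter peaks and those of all peaks in every MEF library and in 2 of 3 mESC libraries. The median GC content of the member peaks in these sets was 55.5% in MEFs and 55.0% in mESCs, that of promoter peaks in general 61.0% and 60.8%, and that of all peaks 51.4% and 52.8%. This ratio is a description without a test.

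**Figure D3:**
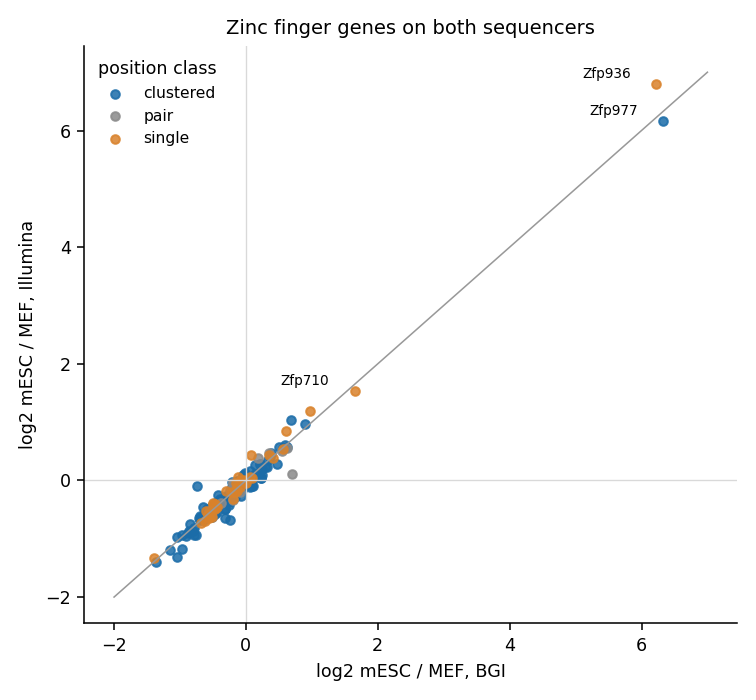
Log2 fold change of mESC against MEF on BGI (x axis) and Illumina (y axis) at the lead promoter peak of the 167 members with a peak on both, coloured by position class, with the line of equality. Points follow the line, and Zfp977 and Zfp936 stand apart above 6 on both axes.

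The second question was whether clustered genes differ from single ones. On BGI, 17 of 115 clustered members with a peak were higher and 47 lower (55.7% called, median log2 fold change -0.20), 4 of 17 paired members were higher and 6 lower, and 7 of 35 single members were higher and 14 lower (60% called, median -0.15). On Illumina, 14 of 115 clustered members were higher and 57 lower (61.7%, median -0.18), and 9 of 36 single members were higher and 16 lower (69.4%, median -0.15). These shares stand beside the 66.2% and 68.4% of protein-coding lead promoters given above. Members that share a lead peak, such as the pair Zfp646 and Zfp668, are counted separately here. Genes are not replicates, so the difference between the classes was not tested. The share called in clustered minus single members was -4.35 percentage points on BGI and moved to between -15.8 (without mESC 3) and -5.84 (without MEF 2) when 1 library was left out, by over 1.5 times for each library but MEF 2. Its sign changed when promoters shared with another gene were left out, with 60.6% of clustered and 56.7% of single members called on BGI. Single members had denser lead peaks, with a median of 31.8 CPM in MEFs and 30.0 CPM in mESCs, against 24.4 and 21.3 CPM for clustered members.

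The single clusters are given by their counts, and the differences between them were not tested. Of the 63 clustered members with a BGI peak on chromosome 7, 5 were higher (7.94%, background 22.4%) and 30 lower (47.6%, background 43.8%). The array from Zfp180 to Zfp94 (10 members, chr7:24081924-24316666) had 7 lower and 1 higher, with a median log2 fold change of -0.70 on BGI and -0.62 on Illumina. Its exceptions were Zfp112, higher by 0.56 on either platform, and Zfp109 and Zfp93, which passed on neither. The array from Zfp954 to Zfp772 had 3 of 4 members lower and a median of -0.82 on BGI. The 15 members from Zfp84 to Zfp146 had 9 lower and 0 higher on BGI, and 10 and 0 on Illumina. All 15 log2 fold changes were below 0 on BGI, from -0.65 to -0.10, where the median of protein-coding lead promoters was -0.17. The smallest of these signs depend on the scaling, since the down-sampled depths as library sizes moved the median of all BGI peaks up by 0.14. The largest cluster, 23 members from Zfp712 to Zfp273 on chromosome 13 (chr13:67038596-67827002), was mixed, with 6 higher and 8 lower on BGI, 4 and 9 on Illumina, and a range from -1.05 to 0.89. In the cluster of 4 members from Zfp141 to Zfp975 the BGI log2 fold changes ran from -0.26 for Zfp141 to 6.33 for Zfp977.

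A lead peak leaves out further starts of the same gene. On BGI 57 members, and on Illumina 49, had more than 1 promoter peak, which added 66 and 62 peaks that led no member. This set was examined after its values had been seen. Of the 66 on BGI, 26 were higher and 22 lower (72.7%, background 74.4% over protein-coding genes), and 15 of them were higher by 2 or more on the log2 scale (22.7%, background 13.5%). Of the 62 on Illumina, 26 were higher and 24 lower (80.6%, background 76.2%), and 16 were higher by at least 2 (25.8%, background 13.3%). Of 163 distinct lead peaks on BGI 2 were higher by that much (1.23%), and of the lead peaks of protein-coding genes 4.89% on BGI and 4.68% on Illumina, so that among protein-coding genes too other promoter peaks were more often higher by that much than lead peaks. The 15 peaks that were higher by at least 2 on both platforms belonged to 12 genes, 8 of them on chromosome 7 and 8 of them clustered, and on BGI the lead peak was lower in 3 of these genes and higher in 1. On BGI their mean density in MEFs was 0.386 to 3.55 CPM, and 12 of the 15 lay more than 2 kb from the 5′ end of the gene record. Their median soft-masked share, which counts bases the reference marks as repeats, was 15.3%, against 9.56% in the other 51.

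Zfp74, in the Zfp84 to Zfp146 array, was the clearest case. Its lead peak at the gene start differed little, with 38.8, 36.1 and 38.1 CPM in the MEFs and 35.6, 32.3 and 37.3 CPM in the mESCs on BGI (log2 fold change -0.17, edgeR adjusted p = 0.0925). A set of 3 further peaks, 9624 to 11150 bp from the gene's 5′ end and each within 1 kb of another annotated start, held less than 1 CPM in every MEF sample. The strongest of them, at chr7:29944215-29944716, held 0.323, 0.447 and 0.697 CPM in the MEFs and 31.1, 28.9 and 31.9 CPM in the mESCs, or higher by 5.89 ± 0.20 on the log2 scale with BGI (edgeR adjusted p = 1.79e-13) and by 7.08 ± 0.23 with Illumina. The others were higher by 5.59 and 4.14 on BGI and by 5.54 and 4.65 on Illumina. The 3 peaks lie next to each other and are not 3 separate observations.

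Similar pairs of peaks were seen at other members. Zfp708, a KRAB zinc finger gene of the chromosome 13 cluster, had a lead peak with 44.8, 45.9 and 44.6 CPM in the MEFs and 48.4, 48.7 and 48.5 CPM in the mESCs on BGI. A second peak 392 bp from a start, 57% of it soft-masked, went from 0.831, 1.54 and 1.49 CPM to 30.6, 29.4 and 29.9 CPM, a log2 fold change of 4.48 on BGI and 4.35 on Illumina. Zfp819 did the same beside a lead peak that did not pass the test, with 0.60, 1.09 and 0.896 CPM in the MEFs and 22.6, 18.3 and 20.4 CPM in the mESCs at the second peak, or 4.49. At Zfp598, whose lead peak changed by 0.0051 on BGI and -0.05 on Illumina, a peak 8017 bp from the gene start rose by 4.53 on BGI and 4.71 on Illumina. At Zfp568, which silences a placenta-specific transcript of Igf2, the lead peak was lower in mESCs, with 48.9, 49.6 and 43.2 CPM in the MEFs and 39.6, 43.1 and 36.7 CPM in the mESCs (log2 fold change -0.31, edgeR adjusted p = 0.0077). That call was lost without MEF 1 (-0.23, edgeR adjusted p = 0.0789) and, on both platforms, when the down-sampled depths served as library sizes. A pair of further Zfp568 peaks rose, by 2.85 and 3.20 on BGI and by 2.66 and 3.34 on Illumina. The reverse order was seen at Zfp710, where the lead peak at the gene start was higher in mESCs and a peak 1466 bp downstream fell from 16.6, 13.6 and 18.4 CPM to 5.86, 4.91 and 3.48 CPM (-1.83 on BGI, -1.73 on Illumina). In all of these second peaks the 3 mESC values and the 3 MEF values did not overlap.

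**Figure D4:**
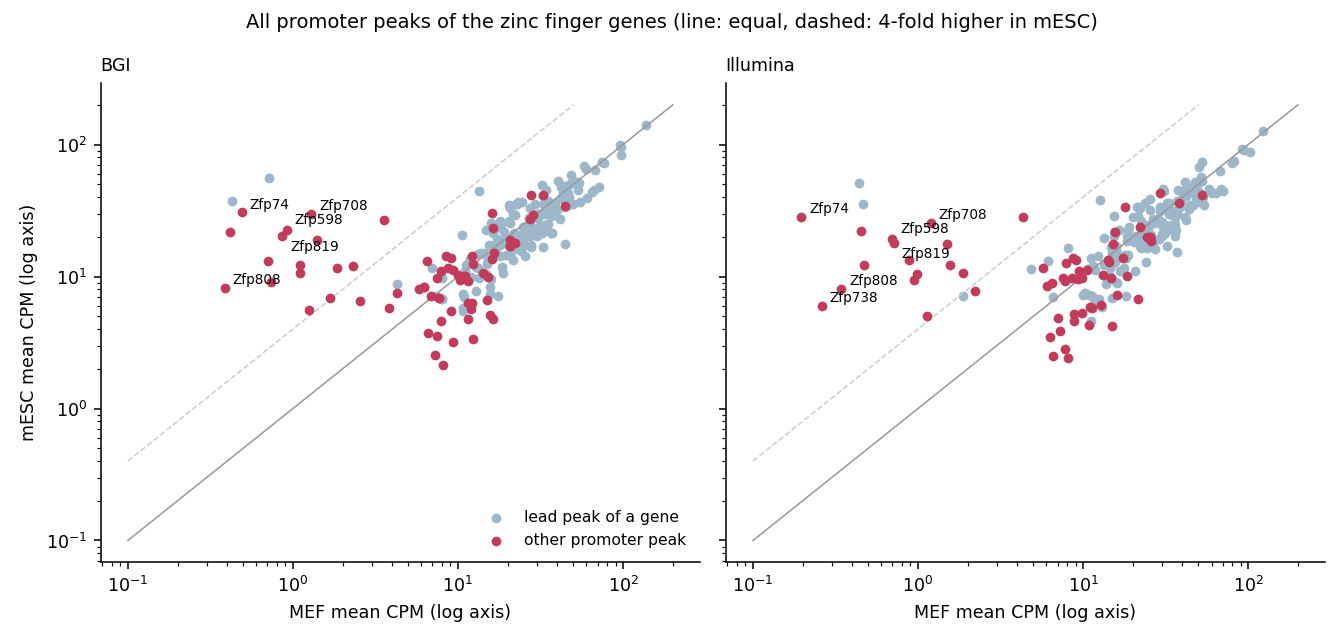
Mean MEF CPM (x axis) and mean mESC CPM (y axis), both on log axes, of every promoter peak of the members on BGI (left) and Illumina (right), with lead peaks in blue and other promoter peaks in red. Of the lead peaks, Zfp977 and Zfp936 alone lie above the dashed line of a 4-fold difference, and a group of other peaks lies above it too, with the most changed genes named.

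Zfp366, Zfp626, Zfp97, Zfp955a and Zfp955b had no promoter peak in the count table of either platform and were on neither list of reproducible peaks. Of these, Zfp626 had weak calls in single samples, with a -log10 p of 3.11 to 6.73 in all 6 mESC samples and no call in a MEF sample. Within 250 bp of the 5′ end of the gene record, 0% of the 100-base stretches of Zfp97, Zfp955a and Zfp955b are unique. For Zfp626 the share is 78.4%. Whether reads were lost at these starts or the starts are closed was not tested. In the same window Zfp366 had fully unique sequence, and it had no called peak in any of the 12 samples. In all, 15 members had under 90% unique stretches, and 11 of these still had a BGI peak, so their values may miss reads. Peaks called in single samples, at a loose threshold, were found for 165 to 166 members in the MEF samples and 169 in each mESC sample. On the lists of reproducible peaks 151 members were present in both cell types on both platforms, Zfp457 and Zfp953 in MEFs alone, and Zfp977, Zfp936, Zfp459 and Zfp57 in mESCs alone. Of the last group Zfp459 and Zfp57 had called peaks in every MEF sample, whose -log10 p was never below 15.3 and 97.2, respectively. Absence from a list is thus not absence of a called peak. Zfp457, absent from the mESC lists, still held a mean of 5.44 CPM in mESCs on BGI.

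The promoter sequence was then compared between the groups, as a description without a test. Over the 300-base window the median GC content was 54.0% in members and 57.0% in all protein-coding genes, and the ratio of observed to expected CpG was 0.60 in both. It was 0.56 in clustered and 0.72 in single members. In the 23 members higher in mESCs on both platforms the median ratio was 0.39, in the 66 lower on both 0.63 and in the 54 that passed on neither 0.66. The corresponding medians over all protein-coding genes were 0.60, 0.78 and 0.78, and over Zfp genes on other chromosomes 0.50 for the 30 higher and 0.73 for the 81 lower on both. Lower CpG content in the mESC-accessible group was thus also seen outside the members. Zfp710, with 0.17, Zfp936, with 0.26, and Zfp977, with 0.27, had low ratios, but so had Zfp976, with 0.38, and Zfp975, with 0.33, which changed less, and Zfp607a, with 0.31, and Zfp773, with 0.34, which were lower in mESCs.

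Motifs were searched as exact letters on both strands of the same window. The pentamer CCAAT was found in 69.6% of the 23 members higher on both platforms (16 of 23), 43.9% of those lower on both, 46.8% of all members and 38.9% of all protein-coding genes. In Zfp genes on other chromosomes it was found in 53.3% of the 30 higher and 35.8% of the 81 lower on both, and in protein-coding genes in 36.5% of those higher and 38.3% of those lower on both. All 4 promoters of the Zfp977 group above hold it. The GC box core GGGCGG was found in 13% of the members higher on both (3 of 23), 36.4% of those lower on both, 56.8% of single members, 27.1% of clustered members and 48.2% of all protein-coding genes. Among protein-coding genes it was found in 56.7% of those higher and 67.1% of those lower on both platforms, and among Zfp genes on other chromosomes in 50% and 56.8%. The letters CCGGAAGT, an ETS factor site, were found in 11.6% of members and 5.29% of protein-coding genes, GCATGCGC, the core of an NRF1 site, in 8.09% and 3.60%, TGACGTCA, a cyclic AMP response element, in 5.78% and 2.55%, TATAAA in 4.62% and 11.5%, and CTCGCGAG in 0 of 173 members and 1.32% of protein-coding genes. The remaining letters searched, AAGATGGCG, TGAGTCA and ATGCAAAT, were in 2.31%, 2.31% and 1.73% of members and 2.03%, 4.49% and 1.65% of protein-coding genes. Related copies share their letters by descent, so these shares do not count independent promoters.

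**Figure D5:**
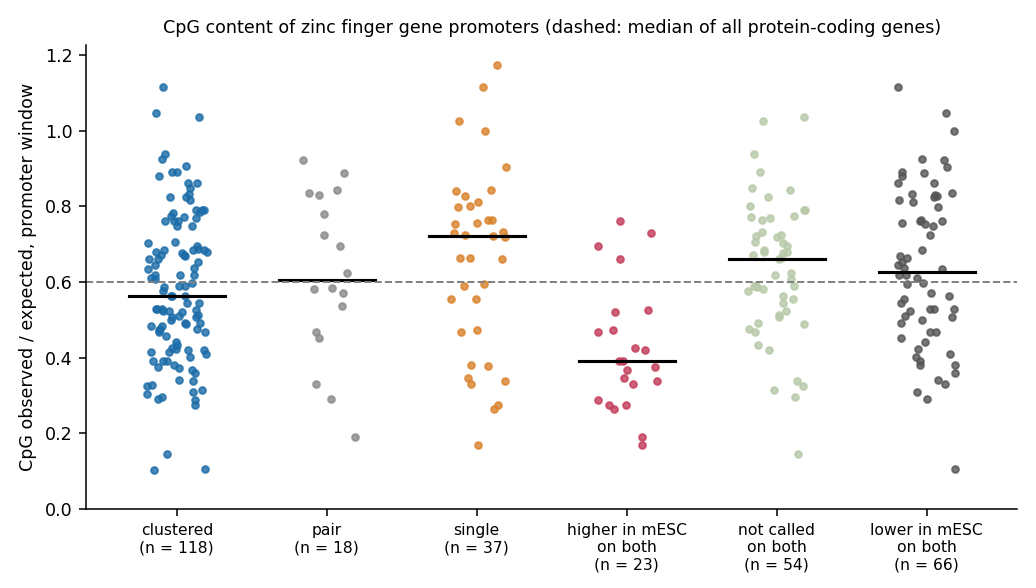
Ratio of observed to expected CpG in the 300-base promoter window (y axis) of each member, by position class (left) and by call on both platforms (right), with bars at the medians and a dashed line at the median of all protein-coding genes. The 23 members higher in mESCs have a median of 0.39, below the 0.63 of the 66 lower ones, and the groups overlap widely.

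The promoters of 20 genes for proteins of KRAB-dependent silencing were read in the same way, and all had a peak. On BGI 4 were higher and 5 lower, where 66.2% of protein-coding lead promoters were called, and on Illumina 3 were higher and 7 lower, where 68.4% were. A 2-fold change or more was called for 0 of them on either platform, against 17.6% and 16.6% of protein-coding lead promoters. Trim28, which encodes the corepressor that the KRAB domain binds, held 39.6 ± 1.63 CPM in MEFs and 43.7 ± 3.46 CPM in mESCs (SD, n = 3; edgeR log2 fold change 0.07 on BGI, adjusted p = 0.468), and on Illumina the log2 fold change was -0.04 (edgeR adjusted p = 0.64). Fam208a, a subunit of the HUSH silencing complex, was higher by 0.72 on BGI and 0.59 on Illumina. Ehmt2, a histone H3 lysine 9 methyltransferase, had log2 fold changes of -0.60 and -0.76, Morc3 of -0.41 and -0.48, and Atf7ip, which encodes a partner of the methyltransferase SETDB1, of -0.40 and -0.30.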

How the data were processed

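The authors trimmed the reads, aligned them to GRCm38/mm10 with Bowtie2, removed duplicates, mitochondrial reads and mapping qualities under 10, and drew 60M reads per MEF sample and 45M per mESC sample. The deposited peak calls carry the -log10 p of MACS2, which was run per sample with a loose p threshold of 0.01. Peaks were set to 501 bp and retained where the depth-scaled score reached 3 in 2 or more samples of a group, which gave the deposited lists of positions, and the authors counted reads in them. These raw counts were analysed here. Count columns without a platform name were taken as Illumina, which was checked against the peak calls (Spearman rho 0.673 to 0.71 between the column ratio and the call ratio over peaks in the 6 libraries).

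Counts of the 6 columns of a platform were fitted over all 91354 BGI or 87027 Illumina peaks with edgeR 4.0.16 in R 4.3.3 (trimmed mean of M values, quasi-likelihood F test of mESC against MEF, no covariate), with p-values adjusted over all peaks by the Benjamini-Hochberg method. Each SE of a log2 fold change was derived from this fit, as the size of the change divided by the square root of its F. It is an approximation. DESeq2, the package that the study used, was an alternative, run here in version 1.42.0. Tables were joined in Python 3.11.15 with pandas 2.3.3, numpy 2.4.6 and scipy 1.17.1, and figures drawn with matplotlib 3.10.9. Named members were the 10 highest and 10 lowest BGI log2 fold changes among those called the same way on both platforms, the 5 smallest changes among lead peaks at or above the member median density, the 3 densest lead peaks, and Zfp57, Zfp568, Zfp36 and Zfp143. For the silencing genes the 4 lowest adjusted p on BGI decided, with Trim28 added. Zfp446, Zfp976, Zfp975, Zfp141, Zfp112, Zfp109, Zfp93, Zfp541 and the genes with further promoter peaks were named after their values were seen. The members, gene lists and comparisons were chosen with earlier results of these data known. Peaks other than lead peaks were examined after their values were seen. Reads were not realigned, so values at near-identical promoters are uncertain.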

Additional observations from a re-analysis of the deposited data

How the results depend on the processing

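With the depths after down-sampling as library sizes, the member median log2 fold change moved to -0.046 on BGI and -0.051 on Illumina. A threshold of 1 on the log2 scale left 8 member calls on BGI (3 higher, 5 lower) and 11 on Illumina (6 higher, 5 lower). Over lead peaks the platform ratio moved from 0.037 to 0.051 in mESCs and from 0.011 to 0.025 in MEFs, and with 1 library left out it was 0.032 to 0.040 and -0.0046 to 0.025. Leaving out each library gave 86 to 100 calls on BGI (23 to 28 higher, 61 to 72 lower, median -0.22 to -0.15) and 95 to 111 on Illumina (22 to 26, 70 to 89, -0.25 to -0.17). The share called in clustered minus single members, -4.35 percentage points on BGI, was -15.8 to -5.84 with 1 library left out, -7.71 on Illumina and 3.91 without shared promoters. Zfp36 reversed to 0.52 (BGI) and 0.49 (Illumina) with a 500 bp window or the nearest peak, Zfp65 to -0.0495 (nearest peak, Illumina) and Zfp574 to -1.18 (gene start only, Illumina). Besides the fold threshold, 11 of 648 values of named members crossed the test's threshold or reversed under alternatives, and 6 of 360 with a library left out. Of these 6, 5 lacked mESC 3, among them Zfp36 on BGI (-0.20) and Zfp28 on Illumina (-0.21). The cause was not tested. The alternatives for further promoter peaks and the left-out libraries for clustered against single were chosen after seeing the data. Counting neighbours by C2H2 fingers was not run. No paired analysis was possible because the MEF and mESC libraries share only the replicate number 1, and the platform ratios within libraries carry no test. With 3 libraries per cell type and few MEF reads at the mESC-open peaks, the size of those changes is poorly fixed.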
